A study of Mus musculus with 6 samples.

Results

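Maturation of the mouse testis was followed from the embryonic stage E13.5 to the day PN1 after birth on 4 of the 6 arrays of a microarray series, the PN1 testis arrays of the strains 129/Sv and 129.MOLF-Chr19 set against the E13.5 testis arrays of the same strains. The series was built to find genes that differ between these strains in the male gonad at the ages when germ cells give rise to testicular tumours, and whole E13.5 male embryos of both strains make up the other 2 arrays. 129/Sv is an inbred strain, and 129.MOLF-Chr19 is a consomic strain on the same background whose chromosome 19 comes from the MOLF strain. Each array was hybridised with RNA from 1 pool, made of 20 pairs of testes per strain at E13.5. At PN1 the 129/Sv pool held 12 pairs of testes and the 129.MOLF-Chr19 pool 25. The embryo arrays had pools of 3 embryos per strain. The series text reports embryonal carcinoma cells beside germ cells in PN1 testes of 129.MOLF-Chr19, and their part in the results was not tested. The E13.5 tissue is titled testis, and its source is given as the male genital ridge. There was thus 1 array for each age and strain, and the strain served as the block that pairs the ages. The p-values measure the spread between these pooled arrays, not between animals.

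At E13.5 the mouse testis has recently formed its cords, in which Sertoli cells enclose the fetal germ cells, while fetal Leydig cells begin to make androgen in the interstitium. Between that age and birth the germ cells leave the mitotic cycle, lose their pluripotency programme and turn on the piRNA machinery that silences transposons, while Sertoli cells go on dividing and secrete anti-Müllerian hormone and inhibin. Peritubular myoid cells lay down smooth muscle and matrix around the cords.

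Levels are deposited array intensities on a linear scale, and pairs of values are given in the order 129/Sv, 129.MOLF-Chr19. A difference is the log2 value at PN1 minus that at E13.5, centred on each array's median and averaged over the 2 strains, with its standard error (SE) from limma. A gene rose or fell when its Benjamini-Hochberg adjusted p from limma was under 0.05. Of 12581 genes tested, 537 rose (4.27%) and 1413 fell (11.2%), and the median difference of all genes tested was −0.03. Rises thus made up 27.5% of calls, but 46.8% after quantile normalization, which called 784 rises and 890 falls. Each called gene had the same sign in both strains. Most changes were small, with a mean under 2-fold for 372 of the genes that rose and 1110 of those that fell, and a mean of 4-fold or more for 30 and 29. The PN1 array of 129.MOLF-Chr19 stood apart in the Actb control for RNA quality but not in the Gapdh control. There the Actb control gave a 3 prime to 5 prime ratio of 1.84, and the other 5 arrays lay between 1.09 and 1.19. The Gapdh ratio was 0.92 there and between 0.89 and 0.97 on the other 5. Without that array 453 genes rose and 925 fell, 386 and 848 of them among the genes called with it. Without the E13.5 array of 129/Sv 124 rose and 170 fell, and without that of 129.MOLF-Chr19 142 rose and 154 fell.

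At least 2-fold in each strain, 123 genes were higher at PN1 (0.978% of genes tested) and 174 were lower (1.38%), and limma called every gene of both sets. The leading rise was Cst12, a cystatin-family protease inhibitor gene expressed in the male reproductive tract. Its intensity was 77.9 and 78.2 at E13.5 and 5100.5 and 4798 at PN1. The E13.5 values lay under the floor to which low values were raised, so the rise was at least 43.9-fold (limma adjusted p 5.12e-07). Neither PN1 array came near the E13.5 arrays. Pdlim3, which encodes a LIM protein of the actin cytoskeleton, went from 144 and 146 at E13.5 to 1909 and 1850.5 at PN1, a rise of 3.70 ± 0.12 (adjusted p 3.75e-06). The inhibin alpha subunit gene Inha went from 761 and 865 to 7424 and 7770.5, 9.42-fold. Ccl17, a chemokine gene, rose from 142 and 141 to 827 and 1364, and Serpina5, an inhibitor of serine proteases, from 131 and 109 to 738 and 1034. For these 4 genes the ages were far apart in each strain.

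The other genes among the 15 largest rises lay between 2.37 and 2.74. They were Hsd17b1, which makes oestradiol from oestrone, the proteoglycan gene Spock2, the amino acid transporter gene Slc38a5, the unconventional myosin gene Myo7a, the alpha-fetoprotein gene Afp, the protease genes Prss35 and Htra3, the piRNA pathway gene Mael, AU015836 and 4930550L24Rik. 3 of them have further probe sets. Those of Afp rose with it, by 1.85 to 2.21. The further probe set of Spock2 differed by 0.40 against 2.71 for the brightest, and those of Htra3 by 0.28 and 0.72 against 2.40, so the size of both rises rested on 1 probe set.

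The leading falls included the embryonic globins and genes of pluripotent and early germ cells. Hbb-y, a beta-like globin of primitive red cells, was at 11158 and 11993 at E13.5 and 216 and 259 at PN1, and fell by 5.60 ± 0.11 (adjusted p 5.12e-07), or 48.6-fold. Hmga2, a chromatin architectural gene of fetal proliferating tissue, went from 8357 and 6992 to 250.1 and 269, 29.3-fold lower, and its other 2 probe sets had a median of −5.62. Both genes were near the array median at PN1 in each strain. Hbb-bh1 and Hba-x, the other embryonic globins on the array, fell by 4.61 and 4.26. Dppa5a and Dppa3, genes of pluripotent cells and early germ cells, differed by −3.87 and −3.59.

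The remaining 9 of the 15 largest falls lay between −2.42 and −2.93. They were Nr2f1, a nuclear receptor of mesenchyme, the integrin subunit gene Itga8, the transcription factor gene Sox11, the adhesion gene Ncam1, the matrix gene Tgfbi, the urogenital homeobox gene Emx2, the Hox gene Hoxc8, the adhesion gene Flrt2 and the secreted WNT antagonist Sfrp2. Ncam1 was 3040.5 and 2216 at E13.5 and 622 and 295 at PN1, and its other 3 probe sets lay at −1.39, −0.90 and −0.34 against −2.59. The 15 rises and 15 falls kept their direction and call under each alternative processing tried, among them leaving out any of the 4 testis arrays. All these are levels in whole testis RNA, in which fewer cells of a type and less RNA per cell cannot be told apart.

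**Figure D1:**
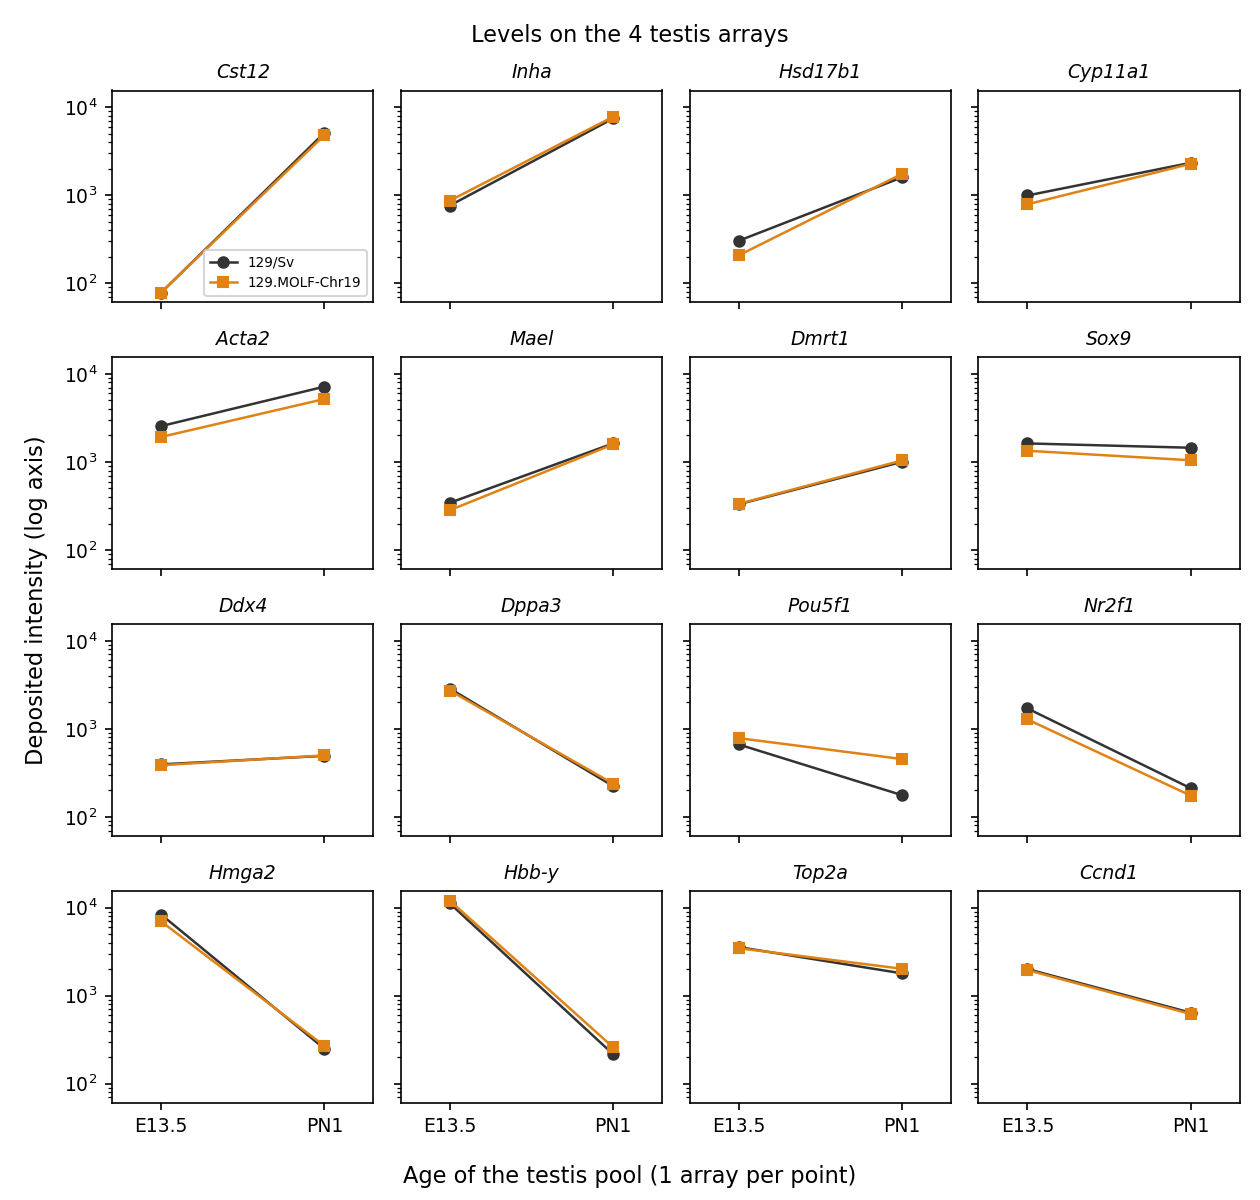
Deposited intensity (log axis) of 16 genes on the 4 testis arrays, by age, with 1 line per strain. Cst12, Inha, Hsd17b1, Cyp11a1, Acta2, Mael and Dmrt1 were higher at PN1 in both strains, Sox9 and Ddx4 did not pass the test, and Dppa3, Pou5f1, Nr2f1, Hmga2, Hbb-y, Top2a and Ccnd1 were lower.

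Function and cell type were read through 41 gene lists, to be set against the 4.27% of all tested genes that rose and the 11.2% that fell. A gene under the array medians at one age passed the expression filter only through the other, so counts of such genes describe the members and are no support for a direction. Sertoli cell genes mostly rose. Of 30 genes on the Sertoli list 27 were measured and 24 tested, and 16 rose, 3 fell and 5 were not called, with a median difference of 0.88. Without the PN1 array of 129.MOLF-Chr19, 14 rose and 1 fell. Of the 3 falls only that of Rhox5 was called then. The anti-Müllerian hormone gene Amh, a defining marker, separated testis from embryo, at 518 and 567 in the E13.5 testis against 186 and 147 in the whole embryo. Secreted hormones and their regulators were prominent. Besides Inha, the activin and inhibin beta B subunit gene Inhbb went from 847 and 735 to 1210.1 and 1094 (0.55 ± 0.13, limma adjusted p 0.0257), and on its other probe set from 751 and 919.5 to 2354 and 2370. Amh reached 1374 and 871 at PN1 (1.02 ± 0.20, adjusted p 0.0134), and its rise was 1.48 in 129/Sv and 0.57 in 129.MOLF-Chr19. The receptor for follicle-stimulating hormone, Fshr, rose from 221 and 181 to 467 and 493. Dhh, the hedgehog ligand that Sertoli cells send to the interstitium, rose from 870.3 and 1082 to 1866 and 1779. These genes were named because they were called, so ages that did not overlap are no further support. Fshr was under the array medians on both E13.5 arrays and passed the filter only through PN1.

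Secreted and carrier proteins of Sertoli cells moved the same way. Clu, which encodes the chaperone clusterin, went from 2181 and 1704 to 7899 and 8478 (2.09 ± 0.13, adjusted p 0.000119), and its other 3 probe sets had a median of 1.98. The prostaglandin D synthase gene Ptgds rose by 1.38, the defensin gene Defb19 by 1.37, the cystatin gene Cst9 by 0.85, the calcium-binding protein gene Tesc by 1.77 and Aard by 0.63. Steroid conversion by 17-beta-hydroxysteroid dehydrogenases was represented by Hsd17b1 (303 and 207 at E13.5 and 1591 and 1740.2 at PN1) and Hsd17b3 (669 and 622 at E13.5 and 2244 and 1759 at PN1), which rose by 2.74 and 1.63.

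Among the transcription factors of the list, those that specify the cell type behaved differently from each other. Dmrt1, which maintains male fate in Sertoli cells and also acts in germ cells, rose from 331 and 334 to 1004 and 1039 (1.63 ± 0.12, adjusted p 0.000219). Gata4 rose by 0.93 and Nr5a1, the steroidogenic factor 1 gene shared with Leydig cells, by 0.50. Sox9, the gene that directs Sertoli fate, was at 1625 and 1340.5 at E13.5 and 1451 and 1046 at PN1 and was not called (−0.25, adjusted p 0.259), with its other probe set at 0.40. Wt1 fell by 0.60 and Fgf9, the growth factor that sustains Sox9 in the early gonad, by 0.56, with its other probe set at −1.97. Rhox5, an X-linked homeobox gene that androgen induces in Sertoli cells, was 836 and 1026 at E13.5 and 263 and 301 at PN1 and fell by 1.71 ± 0.12 (adjusted p 0.000212). Cbln4, Cdkn1b, Sox10 and Cldn11 were not called, with differences from −0.13 to 0.31.

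Leydig cell genes rose at the steps that take up cholesterol and turn it into steroid, but not all along the pathway. Of 13 members tested, 8 rose, none fell and 5 were not called (median 0.57), and 6 rose without the PN1 array of 129.MOLF-Chr19. Scarb1, the lipoprotein receptor that takes up cholesterol, rose from 1125 and 1046 to 2321 and 2446, and Star, which carries cholesterol into mitochondria, from 632 and 528 to 1066 and 926. Cyp11a1, which cuts the cholesterol side chain, went from 991 and 787 to 2329 and 2267 (1.39 ± 0.15, limma adjusted p 0.00134). Hsd3b1, which makes progesterone from pregnenolone, rose from 1652 and 1365 to 3711 and 3698 (1.31 ± 0.12). Cyp17a1, the next enzyme toward androgen, was at 1954 and 1535 at E13.5 and 1417 and 1769 at PN1 and was not called (−0.12, adjusted p 0.662). It was −0.39 in 129/Sv and 0.15 in 129.MOLF-Chr19. Fdx1, the electron donor of the mitochondrial enzymes, and Cyb5a, which assists Cyp17a1, were at −0.14 and 0.09 and were not called either.

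Nr0b1, a repressor that works with Nr5a1, rose by 0.59, and Gramd1b, a carrier of cholesterol between membranes, by 0.57. Thbs2, which marks fetal Leydig cells, was at 0.40 on its brightest probe set (adjusted p 0.0868) and at 1.11 and 1.02 on its other 2, and Pcsk6 was at −0.20. The letters AAGGTCA, a half-site of nuclear receptors such as Nr5a1, were in none of the 7 promoters that RefSeq gave for the 13 tested Leydig members, and in 4.7% of all promoters (250 bases before the start, both strands). Of 19 tested genes of cholesterol synthesis Ebp rose, by 0.46 (5.26% of the list, where 4.27% of all tested genes rose), and the other 18 lay between −0.09 and 0.46 without being called. The call of Ebp was lost without the PN1 array of 129.MOLF-Chr19, and 3 genes of the pathway rose after quantile normalization. The sterol regulatory element TCACNCCAC was in 1 of 16 promoters of the pathway's tested genes (6.25%), that of Hmgcs1, and in 1.22% of all promoters. Adrenal cortex is a tissue close to the gonad that shares several of these enzymes. Cyp11b1 stayed under the expression filter, at 163 and 166 at E13.5 and 119.7 and 155 at PN1, as did Cyp11b2, at 179 and 148 at E13.5 and 186 and 181 at PN1. Cyp21a1 rose from 415 and 358 to 648 and 641, and the corticotropin receptor gene Mc2r fell by 0.48. Of the 7 adrenal genes tested 2 rose and 2 fell, 1 without the PN1 array of 129.MOLF-Chr19. These counts use the brightest probe sets. Pnmt and Dbh, also on the list, are genes of the adrenal medulla rather than the cortex. The other probe set of Pnmt went from 179 and 183 to 1168 and 1716 (2.98), and that of Cyp21a1 rose by 0.90. Those of Dab2 lay at −0.62 and −0.14, and those of Dbh at 0.32 and 0.03. The list's summed intensity was 7899 and 7425 at E13.5 and 9406 and 9488 at PN1. Hsd3b1 is on this list as well as on the Leydig list, and is among the adrenal rises. Its own rise in intensity was larger than that of the sum in each strain. The part of adrenal tissue in the Leydig result was not tested.

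Contractile genes of the peritubular cells rose in a subset. Of 15 tested, 6 rose, 1 fell and 8 were not called (median 0.10). Acta2, smooth muscle actin, went from 2555 and 1924 to 7173 and 5190.3 (1.47 ± 0.11, limma adjusted p 0.000312), and the actin-binding Tagln from 703 and 620.2 to 2878 and 1769. The myosin light chain gene Myl9 rose from 754 and 1007 to 2841 and 2421, its kinase gene Mylk by 1.03, the tropomyosin gene Tpm2 by 0.57 and desmin, Des, by 0.43. Myh11, the smooth muscle myosin gene, was not called on its brightest probe set (294 and 297 at E13.5 and 302 and 326 at PN1), while its other probe set went from 77.3 and 70.5 to 634 and 564. The probe set in use therefore decided whether Myh11 changed. Cald1 lay at −0.40 and the regulators Srf and Myocd at −0.21 and −0.17, none of them called. Actg2, gamma smooth muscle actin, was 490.5 and 569 at E13.5 and 218 and 103 at PN1 and fell by 1.71, with the last value under the floor. Skeletal and cardiac muscle genes, which could come with neighbouring tissue, gave 1 fall (Myl7) and no rise among 14 tested, with 1 rise after quantile normalization or without the PN1 array of 129.MOLF-Chr19.

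Serum response factor binds a CArG box in many contractile promoters, so the 250 bases before the gene start were searched for it on both strands. In RefSeq promoters of GRCm38.p6, 10 of the 15 tested members had an entry and 2 of these (20%) held the box, against 1.62% of 27025 promoters. They were Myl9 and Srf. The Myl9 promoter is shown because it was the called member with the box, which is in capitals and starts 161 bases before the gene. It lies at chr2:156775214-156775463 on the plus strand.
Myl9: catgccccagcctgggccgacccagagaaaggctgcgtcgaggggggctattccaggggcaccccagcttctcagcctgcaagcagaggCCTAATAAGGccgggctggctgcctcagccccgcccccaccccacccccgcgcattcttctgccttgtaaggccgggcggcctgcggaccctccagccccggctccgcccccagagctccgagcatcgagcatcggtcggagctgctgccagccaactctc
A match describes these letters and was not tested as a binding site.

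Matrix genes of the interstitium and cord wall included both strong rises and falls. Of 23 matrix glycoprotein and proteoglycan genes tested, 9 rose (39.1%) and 3 fell (13.0%), where 4.27% and 11.2% of all tested genes did. Quantile normalization gave 10 and 1, as did leaving out the PN1 array of 129.MOLF-Chr19. Elastin, Eln, went from 555 and 498 to 2456 and 1874 (2.04 ± 0.14, limma adjusted p 0.000165; other probe set 0.98), with its companions Mfap4 and Fbln5 up by 1.39 and 0.92 and the crosslinking enzyme gene Lox by 0.64. The calcification inhibitor Mgp rose from 1104 and 1188 to 4196 and 3342. The small proteoglycan genes Ogn, Bgn and Dcn rose by 1.63, 0.52 and 0.52. Aspn rose from under the floor (68.9 and 49.8) to 401 and 265. Vcan, a large proteoglycan of embryonic matrix, went the other way, from 1186 and 1317 to 434 and 578, and Postn and Lum fell by 0.62 and 0.53.

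Of 18 basement membrane genes, 4 rose and 2 fell. On the brightest probe sets the laminin alpha 2 gene Lama2 led them, from 234 and 236 to 969 and 988 (2.06 ± 0.12, limma adjusted p 8.47e-05). Lamc3, Col4a2 and Col4a3 rose by 0.62, 0.49 and 0.67, and Nid2 and Agrn fell by 0.93 and 0.73. Col4a4 was not among the calls, but its other probe sets rose by 2.76 and 2.24, more than Lama2. The other probe set of Lamc3 rose by 1.58, while that of Col4a5 lay at −0.84. Among 15 fibrillar and associated collagens, Col6a1, Col6a2 and Col15a1 rose by 1.06, 0.88 and 0.60, and Col11a1 fell by 1.15, while 5 rose without the PN1 array of 129.MOLF-Chr19. The main fibrillar collagens Col1a1, Col1a2 and Col3a1 were not called, at 0.32, 0.34 and 0.17.

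Regulators of the interstitial progenitors were called in both directions. Of 18 tested, 6 fell (33.3%), 3 rose (16.7%) and 9 were not called (median −0.35). Of all tested genes 11.2% fell and 4.27% rose. Nr2f1 was 1704 and 1278 at E13.5 and 211 and 174 at PN1, a fall of 2.93 ± 0.25 (limma adjusted p 0.000498). The homeobox genes Meis1 and Meis2 went from 1588 and 1587 to 374 and 367 and from 2231 and 1719.5 to 538 and 290.3, with all other expressed probe sets of both lower too, at medians of −0.97 and −2.06. Six4 and the Notch target Hes1 fell by 1.11 and 0.67. Maf fell by 1.15 on its brightest probe set, whereas the median of its other 4 was 0.32. The close relative of Nr2f1, Nr2f2, went from 5437 and 4534 to 3325 and 558 and was not called (adjusted p 0.077). Its differences were −0.64 in 129/Sv and −3.07 in 129.MOLF-Chr19, and its other 4 probe sets lay between −1.23 and −0.73. The receptor gene Pdgfra, Tcf21 and Lhx9 lay at −0.07, −0.30 and 0.13 and were not called. Other probe sets of Pdgfra lay at −1.31 and 0.75, so its direction depended on the probe set. Those of Lhx9 lay at −0.55 and −0.04, and that of Tcf21 at −0.22. Igf1 rose from 915 and 868 to 3477 and 1994, Osr1 by 0.96 and the hedgehog target Gli1 by 0.43.

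**Figure D2:**
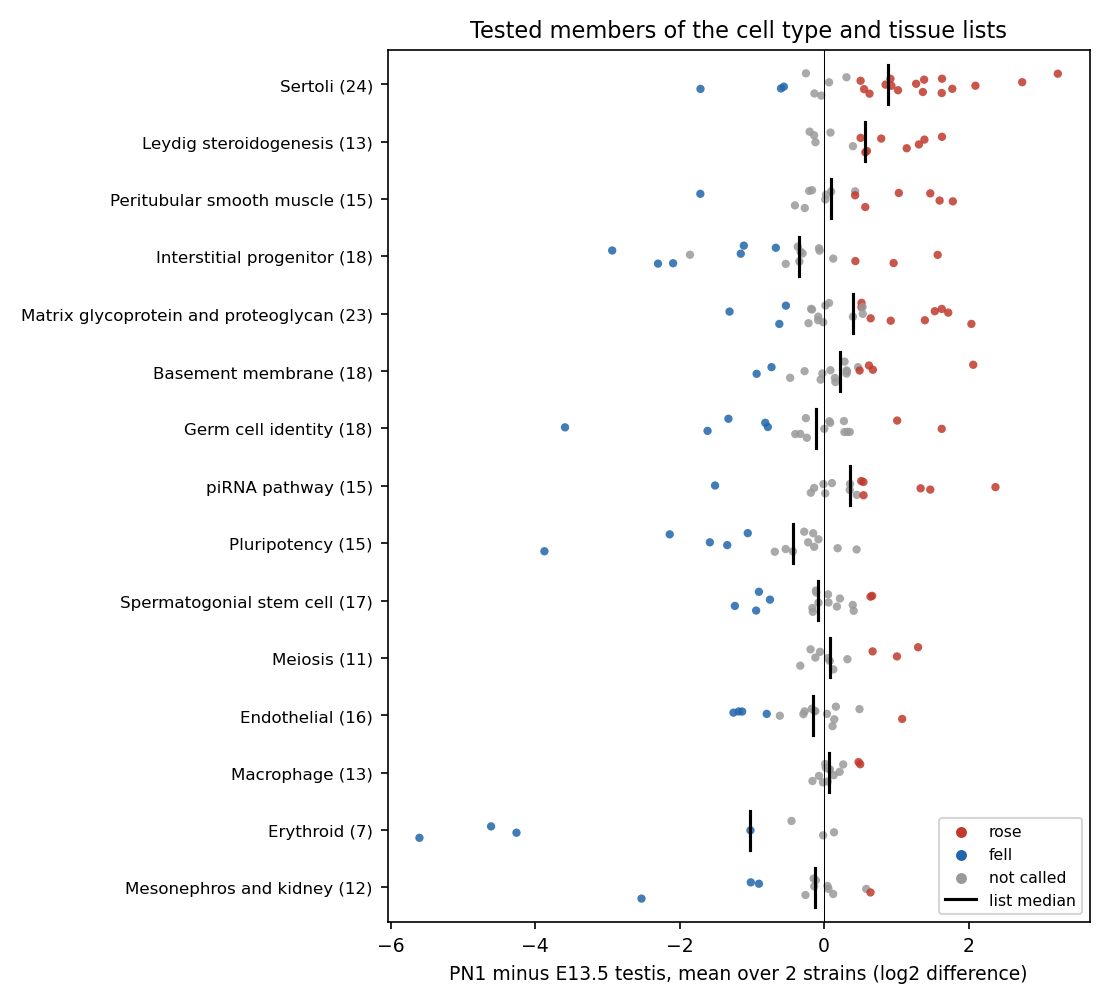
Log2 difference (PN1 minus E13.5 testis, mean over 2 strains) of each tested member of 15 cell type and tissue lists, 1 point per gene, coloured by limma call, with the number of tested genes in brackets and the list median as a black bar. Sertoli, Leydig and matrix genes lie mostly to the right, and the germ cell, pluripotency and progenitor lists spread on both sides with their largest values to the left.

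Among the germ cell lists, pluripotency genes were called only as falls, piRNA genes mostly as rises, and general germ cell markers in both directions. The helicase gene Ddx4 (mouse vasa homologue), which defines germ cells, was at 395 and 386 at E13.5 and 494 and 499 at PN1 and only 18.1 and 22.1 on the embryo arrays. It was not called between the ages (0.35 ± 0.12, limma adjusted p 0.0878). Of 18 germ cell identity genes tested, 2 rose, 5 fell and 11 were not called (median −0.12). Dppa3, a marker of primordial germ cells, went from 2864 and 2719.6 to 224 and 238, 12-fold lower in the mean (adjusted p 5.13e-06). Prdm1, a repressor that specifies germ cells, fell by 0.78, Sohlh2 by 0.81 and the RNA-binding protein gene Elavl2 by 1.33, with its other 4 probe sets between −1.18 and 0.15. Dazl, an RNA-binding regulator of germ cell differentiation, was 5114 and 3506 at E13.5 and 2718 and 695 at PN1 on its brightest probe set, with differences of −0.84 in 129/Sv and −2.38 in 129.MOLF-Chr19. Its other probe set gave −0.87 and −0.20. The PN1 array of 129.MOLF-Chr19 was the lowest of the 4 on the brightest probe set but not on the other.

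Sohlh1, a transcription factor of spermatogonia, rose from 119.8 and 114 to 234 and 235 (1.01 ± 0.15, limma adjusted p 0.00432), opposite to its partner Sohlh2. Sohlh1 was under the array medians on both E13.5 arrays and passed the filter only through PN1. Dmrt1 was the other member that rose. Basic helix-loop-helix factors such as Sohlh1 and Sohlh2 bind E-boxes, and CACGTG was searched on both strands in the 250 bases before each gene start. 2 of 10 list members with a RefSeq promoter (20%) held it, against 6.86% of all promoters, namely Sohlh1 and Ddx4. The Sohlh1 promoter is shown because it belongs to a called member and holds the box 3 times, in capitals, the farthest 231 bases before the start. It lies at chr2:25847249-25847498 of GRCm38.p6 on the minus strand.
Sohlh1: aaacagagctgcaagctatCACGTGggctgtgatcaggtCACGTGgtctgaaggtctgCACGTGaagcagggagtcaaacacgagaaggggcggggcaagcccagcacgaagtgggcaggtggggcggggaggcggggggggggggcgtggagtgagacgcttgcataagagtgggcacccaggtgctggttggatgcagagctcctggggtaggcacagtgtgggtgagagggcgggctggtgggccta

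Of 15 pluripotency genes tested, 5 fell, none rose and 10 were not called (median −0.43). Dppa5a went from 3763 and 3907 to 263 and 257 (3.87 lower, limma adjusted p 3.75e-06). Sox2 fell from 559 and 652 to 82.3 and 158, and Zfp42 from 322 and 389 to 52.1 and 53.8, under the floor on both PN1 arrays. Lin28a, which blocks let-7 microRNA maturation, fell by 1.06. Pou5f1, which encodes the core factor OCT4, was 665 and 784 at E13.5 and 177 and 454 at PN1, with differences of −1.84 in 129/Sv and −0.84 in 129.MOLF-Chr19. Nanog stayed under the filter, at 177 and 205 at E13.5 and 38.8 and 70.7 at PN1. Several members were higher on the PN1 array of 129.MOLF-Chr19 than on that of 129/Sv, as Pou5f1 was. Otx2 was 399 and 308 at E13.5 and 81.1 and 401 at PN1 and was not called. Cer1, a secreted antagonist, was 72.4 and 52.8 at E13.5 and 89.4 and 1076 at PN1. Tdgf1, a coreceptor of Nodal, was at 34.7 and 154 and the Nodal antagonist gene Lefty2 at 50.1 and 172 at PN1, and these 3 genes were under the filter. There was 1 array per age and strain. The strain, its reported embryonal carcinoma cells at PN1 and the RNA quality of that array cannot be told apart here. Without that array, 7 members fell and 1 rose, and after quantile normalization 5 and 1.

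Of 15 piRNA pathway genes tested, 6 rose, 1 fell and 8 were not called (median 0.36). The 5 that rose besides Mael were under the array medians on both E13.5 arrays and passed the filter only through the PN1 arrays. Mael, needed for transposon silencing in the fetal testis, rose from 344 and 283 to 1626 and 1586 (2.37 ± 0.12, limma adjusted p 4.02e-05), against 28.6 and 32.3 on the embryo arrays. Tdrd9 rose from 133 and 101 to 294 and 369 and Morc1 from under the floor (76.3 and 46.2) to 303 and 267. The PIWI protein gene Piwil2, Tdrd7 and Mov10l1 rose less, by 0.55, 0.54 and 0.51. These last 3 were the calls lost without the PN1 array of 129.MOLF-Chr19 or on the values as deposited, where 3 members rose. Prmt5, an arginine methyltransferase that also acts outside germ cells, fell from 2285 and 1924 to 991 and 540.2. Dnmt3l, the cofactor of new DNA methylation in fetal male germ cells, rose from 284 and 272 to 441 and 421, and Dnmt3a fell by 0.78. The maintenance methyltransferase gene Dnmt1 lay at −0.34 (adjusted p 0.107).

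Of 17 spermatogonial stem cell genes tested, 2 rose (11.8%) and 4 fell (23.5%), and 2 fell after quantile normalization. Ret, the receptor for glial cell line-derived growth factor, and Uchl1 rose by 0.64 and 0.66, while the coreceptor Gfra1, Zbtb16 and Etv5 were at −0.11, 0.40 and −0.16 and were not called, with the other probe sets of Zbtb16 at 1.17 and 0.90. The receptor tyrosine kinase gene Kit went from 461 and 487 to 232 and 259 (−0.94, and −0.28 on its other probe set), Thy1 fell by 1.24, Id4 by 0.75 and Cdh1 by 0.90. Of 11 meiosis genes above the filter, 3 rose and none fell, and another 11 lay under it. The synaptonemal complex genes Tex12 and Sycp3 rose from 194 and 144 to 431 and 389 and from 173 and 117 to 283 and 286, and the germ cell nucleotide carrier Slc25a31 by 0.67. Tex12 and Sycp3 were under the array medians on both E13.5 arrays and passed the filter only through PN1. Stra8, which starts meiosis, was at 0.32 (adjusted p 0.255).

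Genes of the dividing cell were called only as falls. Of 25 mitosis genes tested, 13 fell (52%), none rose and 12 were not called (median −0.47), where 11.2% of all genes fell. After quantile normalization 10 fell. The spindle checkpoint kinase genes Bub1 and Ttk went from 866 and 969 to 366 and 469.8 and from 553 and 637 to 231 and 299 (limma adjusted p 0.00201 and 0.000917). The kinesins Kif20a and Kif11, which act in cytokinesis and in spindle bipolarity, fell by 1.19 and 1.08. Top2a, the topoisomerase that untangles chromosomes, went from 3564 and 3465 to 1794 and 2023. The remaining members that fell were Cenpe, Plk1, Ccnb2, Aurka, Birc5, Cenpf, Cenpa and Cdk1, by 0.47 to 0.82, with the other probe set of Cenpf at 0.07. Mki67, the usual proliferation marker, lay at 1390.3 and 1656 at E13.5 and 965 and 1325 at PN1 and was not called (adjusted p 0.0607). Prc1 alone of the 25 had a value above 0 (0.15). The falls were moderate, with Kif20a the largest at 2.27-fold. Kif20a was at 175 and 199 at PN1, under the array medians of 228, and Cdk1 was still at 2174 and 2331.

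Many promoters of G2 and M phase genes carry the cell cycle genes homology region (CHR), TTTGAA. It was found on either strand within 250 bases before the start in 8 of 21 members with a promoter entry (38.1%), against 18.3% of 27025 promoters. Of the called members Kif11, Top2a, Ccnb2 and Cdk1 held it. Kif11 and Top2a are shown because they fell the most among these, with each match in capitals, TTCAAA being the same motif on the other strand. In Kif11 the match starts 19 bases before the gene, at chr19:37376132-37376381 of GRCm38.p6 on the plus strand. The Top2a promoter holds 2 matches, 179 and 23 bases before the start, at chr11:99024190-99024439 on the minus strand.
Kif11: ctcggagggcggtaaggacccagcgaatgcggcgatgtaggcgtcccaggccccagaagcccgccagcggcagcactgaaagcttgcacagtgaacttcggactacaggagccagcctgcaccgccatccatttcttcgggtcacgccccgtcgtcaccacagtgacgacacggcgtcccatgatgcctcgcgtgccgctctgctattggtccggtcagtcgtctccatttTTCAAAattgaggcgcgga
Top2a: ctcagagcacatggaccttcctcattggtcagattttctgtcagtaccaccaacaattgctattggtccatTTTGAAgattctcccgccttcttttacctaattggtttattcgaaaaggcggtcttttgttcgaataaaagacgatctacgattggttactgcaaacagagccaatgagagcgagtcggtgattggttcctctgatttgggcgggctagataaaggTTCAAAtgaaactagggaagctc
The uncalled members Mki67, Cdc20, Ube2c and Prc1 held the motif too.

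DNA replication genes went the same way with fewer calls. Of 25 tested, 8 fell and none rose (median −0.34), and 5 fell without the PN1 array of 129.MOLF-Chr19. Rrm2, a subunit of ribonucleotide reductase, went from 1800.0 and 2000.1 to 670.1 and 1160.2, the polymerase alpha gene Pola1 fell by 0.85, and the helicase loading genes Cdc6 and Cdt1 by 0.69 and 0.68. The replicative helicase was split, with Mcm3, Mcm4 and Mcm2 down by 0.77, 0.63 and 0.54, and Mcm5, Mcm6 and Mcm7 at −0.31, −0.27 and −0.34 without a call. Pcna was at 4917 and 5292 at E13.5 and 3974 and 4391 at PN1.

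Of 18 G1 cyclins and inhibitors of cyclin-dependent kinases, 3 fell and none rose. Cyclin D1, Ccnd1, went from 2007 and 1954 to 641 and 619 (1.64 ± 0.13 lower, limma adjusted p 0.000312), and its other 2 probe sets had a median of −1.95. The inhibitor Cdkn1c, p57, went from 5508 and 4495 to 2049 and 965. Ccne2 fell by 0.73. After quantile normalization 1 member rose. The other 15 were not called, among them Cdkn1b at 0.07, Cdkn2c at 0.47 and Ccnd2, which was 0.56 in 129/Sv and −0.55 in 129.MOLF-Chr19.

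Imprinted genes and the insulin-like growth factor (IGF) system, which control fetal growth, held more falls than rises, as did all tested genes. Of 21 imprinted genes tested, 10 fell (47.6%), 2 rose (9.52%) and 9 were not called (median −0.59). Of all tested genes 11.2% fell and 4.27% rose. Paternally expressed growth promoters were among the falls. Igf2 went from 8658 and 8812 to 5593 and 4021 (0.87 ± 0.16 lower, limma adjusted p 0.0095), Mest from 6246 and 6228 to 3045 and 3651, and Peg3 and Nnat fell by 0.70 and 1.18. Maternally expressed genes, several of which restrain growth, fell as well. Igf2r, the clearance receptor of IGF2, went from 1454 and 1308 to 609 and 599, and Cdkn1c, Grb10 and Asb4 fell by 1.81, 0.83 and 1.27. The other probe sets of Grb10, at −2.67 and −2.24, and of Igf2, at −1.56, were lower still. The ubiquitin ligase gene Ube3a and the long noncoding RNA gene Kcnq1ot1 fell by 1.50 and 0.59. Plagl1 and Gnas were high at both ages (Plagl1 at 9122 and 7908 at E13.5 and 8956 and 8730.0 at PN1) and lay at 0.07 and −0.01. Dlk1, a Notch-like regulator of precursor cells, rose from 4690.4 and 4778 to 7958 and 7342, and Dcn was the other rise. Meg3, in the same imprinted cluster as Dlk1, was at 0.21 and was not called.

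In the IGF list of 17 tested genes, 7 fell (41.2%) and 3 rose (17.6%). Both shares were above the 11.2% and 4.27% of all tested genes, with no stronger lean to falls. The ligands went in opposite directions, since Igf1 rose 2.97-fold while Igf2 fell. The other 3 probe sets of Igf1 lay between 0.80 and 2.20. Of the binding proteins, Igfbp6 and Igfbp7 rose from 328 and 296 to 1404 and 1216 and from 1479.5 and 1462 to 3446 and 3539. Igfbp3, Igfbp5 and Igfbp2 fell by 1.60, 1.49 and 1.05, and Igfbp4 was at −0.37. The other probe set of Igfbp7 lay at −0.21. Downstream, the adaptor Irs1 went from 1957 and 1726 to 591 and 688, and the receptor genes Igf1r and Insr were at −0.43 and 0.18 without a call. Hmga2, listed here because it regulates an IGF2 messenger-binding protein gene, was the largest fall of the list, while Igf2bp1 and Igf2bp3 lay at −0.06 and 0.15 on their brightest probe sets. Their other probe sets had medians of −0.78 and −0.67, and those of Igf1r and Insr −1.05 and −0.57, so for these genes the difference depended on the probe set.

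Signalling genes that pattern the embryonic gonad came next. Of 23 WNT pathway genes tested, 11 fell (47.8%) and 1 rose (median −0.45), against 11.2% and 4.27% of all tested genes. Ligands, receptors and targets were all represented among the falls. The ligand Wnt5a went from 1577 and 1439 to 668 and 514 (1.35 lower, limma adjusted p 0.00456), and Wnt4 and Rspo1, which act in ovarian development, fell by 0.67 and 0.73, with the other probe set of Wnt4 at −1.67. The receptors Fzd2, Fzd7, Lgr4 and Lrp6 fell by 1.32, 0.84, 1.01 and 0.69. The transcriptional mediator Lef1 and the feedback target Axin2 fell by 0.90 and 0.77, though the other probe set of Lef1 was at −0.04. Antagonists fell as well, Sfrp2 from 1134 and 1132 to 228 and 194 and Dkk1 by 1.01. Wnt6 rose by 0.55, a call lost without the PN1 array of 129.MOLF-Chr19, and Ctnnb1, beta-catenin, was at −0.33 (adjusted p 0.076).

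In the list of 30 genes for transforming growth factor beta (TGF-beta), activin and bone morphogenetic protein (BMP) signals, 4 rose and 8 fell, 5 after quantile normalization. The rises were Inha, Amh and Inhbb from the Sertoli list and Fstl3, an activin antagonist, from 229.8 and 199 to 733 and 402. The falls held ligands, receptors and targets of the other branches. Tgfb2 went from 1348 and 1213 to 609 and 449.6, Bmp4 from 1293 and 1309 to 534 and 565, the receptors Tgfbr1 and Bmpr1a fell by 0.92 and 0.50, and the BMP targets Id2 and Id3 by 1.17 and 1.18. Smad3 and the decoy receptor Bambi fell by 0.55 and 0.61. Amhr2, the receptor for anti-Müllerian hormone, lay at −0.06.

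Of 13 hedgehog genes 2 rose and 3 fell. Dhh and the target Gli1 rose by 0.92 and 0.43, the call of Gli1 being lost without the PN1 array of 129.MOLF-Chr19. The coreceptors Gas1 and Cdon fell by 1.22 and 0.48 and the repressor Gli3 by 0.98, while the receptor Ptch1 was at −0.53 (limma adjusted p 0.0883). Of 15 Notch genes 4 fell, namely the ligand Jag1 by 1.14, Hes1, Rbpj and Notch3, and none rose. Jag1 went from 689.7 and 647 to 263 and 343. Without the PN1 array of 129.MOLF-Chr19, or after quantile normalization, 2 Notch genes fell.

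Of 16 retinoic acid genes, 5 fell and 1 rose. Aldh1a2, the enzyme that makes retinoic acid in the mesonephros and coelomic lining, went from 1809.6 and 1602 to 591 and 535 (1.59 ± 0.13 lower, limma adjusted p 0.000377), and Rdh10, which feeds it, fell by 0.89 (−0.22 on its other probe set). The receptor Rarb, itself a target, went from 442 and 413 to 176 and 168, and the binding protein Crabp2 and Rdh11 fell by 0.91 and 0.68. The paralogue Aldh1a1 rose from 3919 and 3525 to 7773 and 6436. Cyp26b1, which degrades retinoic acid in the fetal testis, was at 1288 and 1189.7 at E13.5 and 1111 and 1304 at PN1, with no call.

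Of 17 Hox genes above the filter, 7 fell and none rose. Hoxc8 went from 1331 and 1339 to 259 and 205 and Hoxc5 from 317 and 344 to under the floor (93.4 and 89.9). Hoxc4, Hoxc6, Hoxb2, Hoxb3 and Hoxa7 fell by 0.53 to 1.04. 4 of these 7 belong to the HoxC cluster, and the HoxD genes tested, Hoxd8, Hoxd9 and Hoxd10, lay between −0.12 and 0.45 without a call. Hoxa5 and Hoxa9 were not among the calls, but their other probe sets fell by 2.41 and 2.16. Those of Hoxa3 and Hoxd8 lay at 0.01 and 0.14. The split by cluster therefore depended on the probe set. A further 16 Hox genes lay under the filter, and 1 Hox gene rose after quantile normalization.

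**Figure D3:**
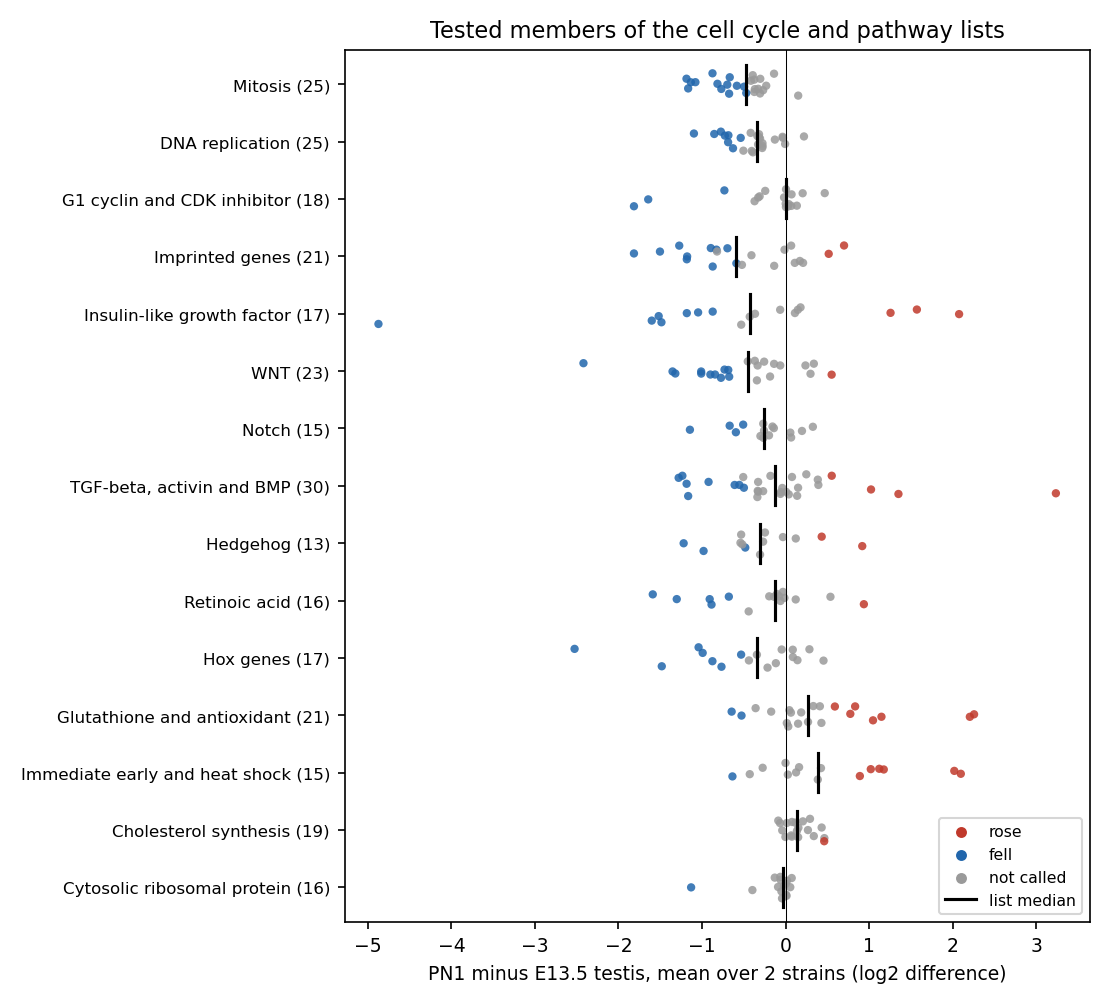
Log2 difference (PN1 minus E13.5 testis, mean over 2 strains) of each tested member of 15 cell cycle and pathway lists, 1 point per gene, coloured by limma call, with the number of tested genes in brackets and the list median as a black bar. Mitosis, DNA replication, imprinted and WNT genes lie mostly to the left of 0, glutathione and immediate early genes mostly to the right, and cytosolic ribosomal protein genes close to 0 apart from Rpl14.

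Detoxification genes rose in part. Of 21 glutathione and antioxidant genes, 7 rose (33.3%) and 2 fell. All 7 encode glutathione transferases. Gstm6 went from 575 and 614 to 2686 and 2966 (2.26 ± 0.13, limma adjusted p 8.72e-05), Gsta2 from under the floor (115 and 92.9) to 589 and 458, and Gsta3 rose by 1.15. Gstm1, Gstm2 and Gsta4 rose by 1.05, 0.83 and 0.78, and the microsomal transferase gene Mgst1 by 0.59. Genes of one transferase class are close in sequence, so a probe set may read more than its own gene. The peroxidase gene Gpx1 and the glutathione synthesis gene Gclm fell by 0.65 and 0.53, and neither was called after quantile normalization.

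Immediate early and heat shock genes, which respond to handling as well as to signals, rose in 6 of 15. Egr1 went from 496 and 525 to 2198 and 2143 (2.10 ± 0.13), Egr2 from under the floor (54.3 and 50.4) to 234 and 277 and Fos from 185 and 163 to 388 and 364. The heat shock genes Hspb1, Hspa1b and Hspa1a rose by 2.02, 1.02 and 0.89. Jun fell by 0.64, a call lost after quantile normalization and without the PN1 array of 129.MOLF-Chr19. Atf3, Ier2, Dusp1 and Dnajb1 were not called, at 0.39, 0.42, 0.16 and −0.27. The time from dissection to extraction at each age is not given in the sources used here, and its part was not tested.

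The embryonic globins were lower at PN1, and other red cell genes less clearly so. Of 16 genes on the erythroid list 11 were measured and 7 tested, and 4 fell and none rose (median −1.02). The embryonic globins Hbb-y, Hbb-bh1 and Hba-x led the falls. The band 3 anion exchanger gene Slc4a1 fell by 1.02 (−0.16 on its other probe set), and Alas2 and Gata1 were at −0.45 and −0.01 without a call. The list's summed intensity was 27369 and 30936 at E13.5 and 2888 and 3265 at PN1. Hbb-y, at 11158 and 11993, and Hba-x, at 10101 and 11864, made up most of the E13.5 sum. On the whole-embryo arrays Hbb-y was at 14139 and 13946. The part of red cell content in the other differences was not tested.

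Of 16 endothelial genes, 4 fell (25%) and 1 rose (6.25%). The receptor for vascular endothelial growth factor, Kdr, went from 1926 and 1536 to 802 and 707 (limma adjusted p 0.00222), and Emcn, Plvap and Egfl7 fell by 1.13, 1.26 and 0.80. The other 3 probe sets of Egfl7 lay at 0.11, 0.02 and 0.28, so its fall rested on 1 probe set. The defining junction genes Cdh5 and Pecam1 were at 0.49 and −0.27 and were not called, and Cd34 rose from 355 and 485 to 879 and 865, with 2 rises under quantile normalization or without the PN1 array of 129.MOLF-Chr19. Of 13 macrophage genes Fcer1g and Lyz2 rose by 0.50 and 0.48, calls that were both lost without the PN1 array of 129.MOLF-Chr19, and the receptor gene Csf1r was at −0.07. The class I histocompatibility genes H2-K1 and H2-D1 rose from 320.1 and 247 to 487 and 552 and from 324 and 297 to 517 and 501, and Cd74 by 0.56.

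Tissue around the gonad was checked in the same way, since the E13.5 sample is also labelled genital ridge. Of 12 mesonephros and kidney genes tested, 3 fell and 1 rose, with a summed intensity of 8258 and 7925 at E13.5 and 6534 and 8024 at PN1. Emx2 went from 826 and 794 to 139 and 139.9 and the kidney cadherin gene Cdh16 from 522 and 456 to 249 and 231. Calb1 and Gata3, markers of the mesonephric duct, were under the filter, at 110.3 and 157 at E13.5 and 39.8 and 52.4 at PN1 and at 142 and 156 at E13.5 and 65.6 and 57.1 at PN1. Pax8, a defining marker of the nephric lineage, was at 639 and 448 at E13.5 and 591 and 510.2 at PN1 and was not called (0.05). Of 16 surface epithelium genes 5 fell and 1 rose, among them Bnc1 from 459 and 467 to 193 and 218 and Upk3b by 0.93, and 3 fell after quantile normalization or without the PN1 array of 129.MOLF-Chr19. The part of such tissue in the other results was not tested. Afp, a fetal liver and yolk sac gene, rose from 25.6 and 26 to 674 and 589.6 in the testis, against 9220.2 and 8004 on the embryo arrays. Of 12 liver genes measured 7, among them Alb, Fga and Fgb, stayed under the filter and 4 were not called. Alb was at 185 and 140.1 at E13.5 and 194 and 207 at PN1.

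The 2 strains agreed in the direction of most large changes, but less in their size. In 129/Sv 188 genes were higher at PN1 by 2-fold or more (1.49%) and 257 lower by as much (2.04%). The same counts for 129.MOLF-Chr19 were 163 (1.3%) and 449 (3.57%). The 123 shared rises are 65.4% of the 129/Sv list and 75.5% of the other, and the 174 shared falls are 67.7% and 38.8%. Of the genes past 2-fold in 129/Sv, 98.4% of rises and 98.05% of falls had the same sign in 129.MOLF-Chr19, and of those past 2-fold in 129.MOLF-Chr19, 98.8% and 96.4% had it in 129/Sv. Across all 12581 genes the age differences of the strains correlated with Pearson's r 0.764 and Spearman's rho 0.650, as a description of genes, which are not independent replicates. The extra falls in 129.MOLF-Chr19 are the points below the diagonal of the strain plot.

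**Figure D4:**
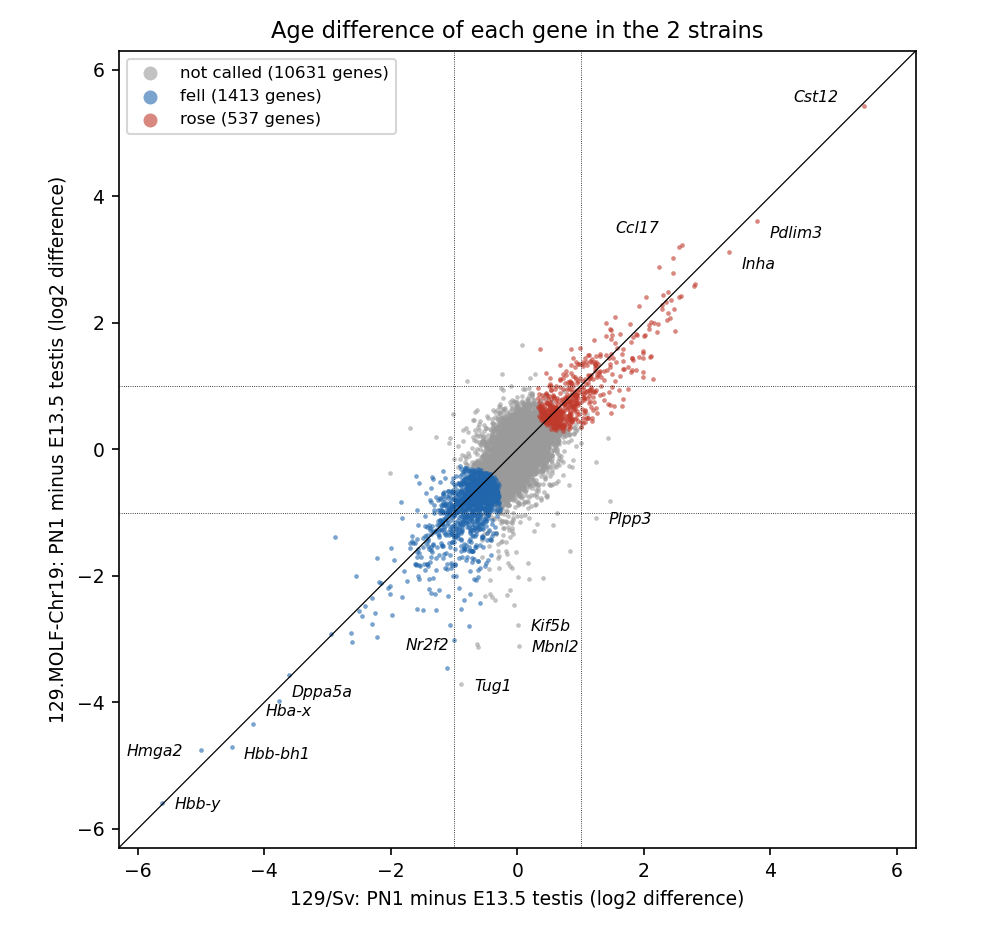
Log2 difference between PN1 and E13.5 testis for each of 12581 genes, in 129/Sv (x axis) and in 129.MOLF-Chr19 (y axis), coloured by limma call. The solid line marks equal differences and the dotted lines 2-fold. Large rises and falls lie along the line, and a tail of genes such as Tug1 and Mbnl2 lies well below it.

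For 145 genes (1.15%) the age difference was 2-fold or more apart between the strains, with 1 array per age and strain and thus no test. In 117 of them 129.MOLF-Chr19 lay below 129/Sv, and in 28 above. The 10 widest gaps were all of the former kind. Mbnl2, a splicing regulator, was 1584 and 1454 at E13.5 and 1546 and 175 at PN1, and Tug1, a long noncoding RNA, 5467 and 4455 and 2825 and 352. The kinesin gene Kif5b went from 1508 and 1368 to 1445 and 207 and the histone demethylase gene Kdm6b from 2155 and 1777 to 1329 and 212. In these 4 genes the PN1 array of 129.MOLF-Chr19 stood alone. The others were Sdc4, Gpm6b, Nr2f2, Sgpl1, Rbfox2 and Plpp3, with gaps of −2.44 to −2.33.

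The other probe sets of these genes rarely showed the gap. Of 182 further expressed probe sets in 87 of the 117 genes, 27 were 2-fold apart the same way, and the median gap was −0.18. Of 19 further probe sets in 11 of the 28 genes, 5 were, with a median of 0.29. Plpp3, a lipid phosphatase gene, was the gene that moved 2-fold in opposite directions, from 2148 and 2088 to 4840.3 and 1018, and its other probe set rose in both strains, by 1.07 and 0.93. Rbfox2 was called as a fall (−2.28, limma adjusted p 0.0196) on a probe set that its other did not follow, at −0.04 in 129/Sv and 0.04 in 129.MOLF-Chr19. Other probe sets of called genes mostly had the same direction with age. Of 275 in 182 genes that rose, 228 (82.9%) were above 0, with a median of 0.47, and of 1244 in 740 genes that fell, 1101 (88.5%) were below 0, with a median of −0.54. Over all 7866 such probe sets the median was −0.12 and 64.1% lay below 0.

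**Figure D5:**
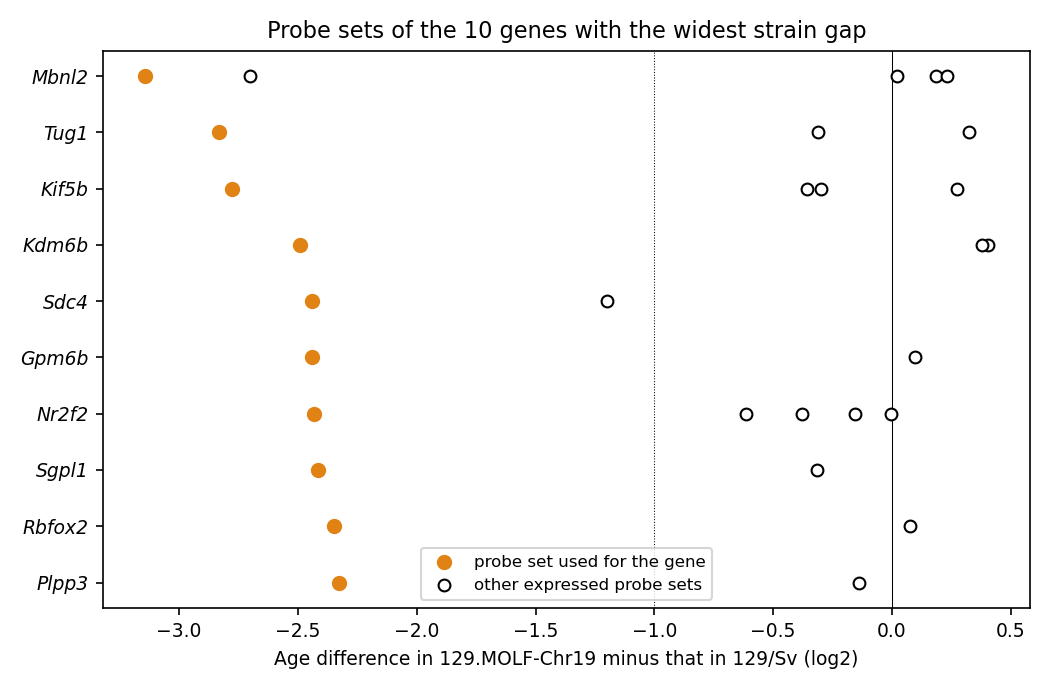
Age difference in 129.MOLF-Chr19 minus that in 129/Sv (log2) for each expressed probe set of the 10 genes with the widest gap, with the probe set that stands for the gene in orange and its other probe sets as open circles. The dotted line marks 2-fold. The orange points lie between −3.14 and −2.33, and the open circles lie to the right of the dotted line except for 1 of Mbnl2 and that of Sdc4.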

How the data were processed

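RNA of 6 pools was labelled with biotin and hybridised to 1 Affymetrix mouse array each, per the labels. The authors deposited 1 intensity per probe set on a linear scale, and the method that summarised and scaled the probes is not given in the sources used here. Of 45101 probe sets, 64 controls were left out, 34945 had 1 gene symbol in the platform annotation, 932 several and 9160 none. Values were raised to each array's 25th percentile, put on the log2 scale and centred on the array median. For each of 18193 genes the brightest probe set that names 1 symbol stood for the gene, and 12581 genes above the array median on at least 2 of the 4 testis arrays were tested. The fit used limma 3.58.1 in R 4.3.3 (trended eBayes, two-sided) over all 6 arrays with tissue and age in 3 levels and strain as the block. With 2 residual degrees of freedom the spread comes from how the strains differ between tissues, moderated with 5.67 prior degrees of freedom, and the number of arrays limits the precision. The code was tested on simulated data.

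The comparison and the 41 gene lists (830 genes, of which 752 were measured and 605 tested) were chosen with earlier results of these data known. Named were the 15 largest rises and 15 largest falls among genes 2-fold changed in each strain, called list members, cell type markers, the 10 widest strain gaps and up to 4 promoters. List members named although not called were chosen after their values were seen. Promoters came from RefSeq (GRCm38.p6) by gene symbol. Alternatives were other scalings, floors, filters, probe set rules, fold limits, fits and left-out arrays. Alternatives for counts of list members were chosen after seeing the data.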

Additional observations from a re-analysis of the deposited data

Results flagged for a closer look

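Plpp3 had a difference between PN1 and E13.5 that ran in opposite directions in the strains, 1.24 in 129/Sv and −1.09 in 129.MOLF-Chr19, so that the change in 129.MOLF-Chr19 minus that in 129/Sv was −2.33. With 1 array per age and strain this difference was not tested. The other probe set of Plpp3 rose in both strains, by 1.07 and 0.93.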

How the results depend on the processing

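No called gene was called in the opposite direction under any alternative fit across all genes. After quantile normalization 890 genes fell, 884 of them among the 1413, and 784 rose, including 535 of the 537. Testing each probe set on its own called 2195 falls. Without the strain block (no replicate block), which pairs the ages, 434 genes rose and 1014 fell. Leaving out 1 testis array at a time gave 124 to 569 rises and 154 to 1587 falls. Such a fit has 1 residual degree of freedom, and the lone array of an age is taken to vary like the others. The counts of rises ranged from 382 to 784 and those of falls from 890 to 2195 over all other alternatives.

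The 123 genes at least 2-fold higher in each strain became 298 at 1.5-fold and 40 at 3-fold, the 174 lower genes 714 and 32, and the 145 strain gaps 760 and 35. Averaging each gene's probe sets gave 112 lower genes and 80 strain gaps. Leaving out 1 array at a time, the age difference of Sdc4 ran from −1.59 to 0.81, positive without the PN1 array of 129.MOLF-Chr19, and that of Plpp3 from −1.13 to 1.28, negative without the PN1 array of 129/Sv. That of Rbfox2 reversed to 0.0014 with the probe set chosen on the testis arrays. The cause was not tested. Averaging each gene's probe sets moved the median of 15 of the 41 lists by more than its spread between the strains, and quantile normalization moved 21. Levels under an array's floor of 107 to 125 give only bounds.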

Other observations

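The remaining lists are given by their counts, where 4.27% of all tested genes rose and 11.2% fell. Among 9 epididymis and rete genes tested the claudin gene Cldn10 fell, by 0.90, and among 9 neural genes the adhesion gene Ncam1 alone fell, while Sox10 and Mapt were at −0.04 and 0.09. Among 6 adipocyte genes the transcription factor gene Cebpa rose, by 0.91, and the lipid-handling genes Fabp4 and Lpl were at 0.16 and −0.42 without a call. Of 7 interferon response genes Ifitm1, also a marker of early germ cells, fell by 1.26. Cytosolic ribosomal protein genes lay near the median of all genes, with 1 fall (Rpl14, 1.13) among 16 tested. DNA methylation and demethylation genes gave 1 rise and 1 fall among 16, with the demethylase genes Tet1, Tet2 and Tet3 at 0.12, −0.26 and 0.10 without a call. The other 2 probe sets of Tet1 lay at −1.20 and −1.40, so whether Tet1 differed depended on the probe set.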
